A study of Homo sapiens with 12 samples.

Results

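The mRNAs of 8 proteins that bind AU-rich elements were followed in 12 RNA-seq libraries of human multiple myeloma cells. They were ZFP36, ZFP36L1 and ZFP36L2, the decay factors HNRNPD and KHSRP, the stabilising factor ELAVL1, and the translational repressors TIA1 and TIAL1. The 8 genes were taken by name from a table of 60666 gene IDs, and all 8 passed the filter on low counts that left 23493 genes for testing. ZFP36 was chosen by its log2 fold changes with JQ1, which ran in opposite directions in different lines, so its values are given as a description and without a test. The other 7 were chosen for their function and were tested. The study set JQ1 against DMSO in 3 lines, to follow how a BET inhibitor acts on gene activity in myeloma. The 6 groups were KMS-11 with JQ1, KMS-11 with DMSO, KMS-12 with JQ1, KMS-12 with DMSO, RPMI8226 with JQ1 and RPMI8226 with DMSO, with 2 libraries each. JQ1 was given at 1 µM for 72 h, so a single dose and a single time of JQ1 were measured. For the DMSO libraries the labels give no time. Each line is an established culture from 1 tumour, and the labels do not say whether the 2 libraries of a group came from separate cultures. The p-values therefore reflect how far these libraries scatter, and that scatter may be technical.

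AU-rich elements are stretches of repeated AUUUA in the 3′ untranslated regions (3′ UTRs) of short-lived mRNAs, such as those of cytokines, immediate early genes and regulators of survival. ZFP36 (tristetraprolin) and its relatives ZFP36L1 and ZFP36L2 grip these elements with a pair of zinc fingers and recruit the CCR4-NOT deadenylase, which shortens the poly(A) tail and starts decay. ELAVL1 (HuR) binds the same kind of element and protects the message, HNRNPD (AUF1) and KHSRP mostly promote decay, and TIA1 and TIAL1 hold translation back and gather in stress granules. In lymphoid cells ZFP36L1 and ZFP36L2 are known as guards of B cell and T cell development. JQ1 displaces BET proteins, readers of acetylated histones, from chromatin.

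The ZFP36 mRNA is a known target of its own protein, so the members' 3′ UTRs were searched for the preferred ZFP36 site. The motif was the 9-base TTATTTATT, read on the transcript strand of the GENCODE 29 transcripts (GRCh38), and overlapping copies were counted separately. It was present in 8.28% of the 3′ UTRs of 13931 tested protein-coding genes, whose median length was 1057 bases. Of the members, 4 held 1 copy each: ZFP36 in a 3′ UTR of 713 bases, ZFP36L1 in 1871 bases, ZFP36L2 in 1917 bases and ELAVL1 in 4904 bases. The share of 3′ UTRs of like length with the motif was 4.93% for ZFP36, 8.96% for ZFP36L1, 9.46% for ZFP36L2 and 22.8% for ELAVL1. These letters were not in the annotated 3′ UTRs of HNRNPD (1687 bases), KHSRP (764 bases), TIA1 (3275 bases) or TIAL1 (228 bases). Of 3′ UTRs of like length 7.98%, 4.66%, 14.6% and 1.23% held the motif, so its absence says little. The sites below show the motif in capitals between 10 bases on each side, first in the 4 members and then in 2 AU-rich mRNAs whose responses are described later (TNFAIP3 and PLAUR). They lie at chr19:39409196-39409224 on the plus strand for ZFP36, chr14:68788077-68788105 on the minus strand for ZFP36L1, chr2:43223448-43223476 on the minus strand for ZFP36L2 and chr19:7961828-7961856 on the minus strand for ELAVL1. The others lie at chr6:137882298-137882326 on the plus strand for TNFAIP3 and at chr19:43648601-43648629 on the minus strand for PLAUR. All 6 are in the 3′ UTR, and a match of letters is a description of the sequence only.
ZFP36: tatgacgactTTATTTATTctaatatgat
ZFP36L1: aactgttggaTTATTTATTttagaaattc
ZFP36L2: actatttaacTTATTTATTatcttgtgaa
ELAVL1: atttatgtatTTATTTATTgaagtgtgaa
TNFAIP3: gtaattcactTTATTTATTttattacaaa
PLAUR: aatattcataTTATTTATTttatacttac

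Depth ran from 15424512 to 27366499 counts per library, and the libraries of each group differed by more than counting noise (chi-square over its degrees of freedom from 5.64 for KMS-12 JQ1 to 22.3 for KMS-11 DMSO). Levels are CPM, the counts relative to a library total scaled by TMM, and log2 fold changes are JQ1 over DMSO from edgeR's quasi-likelihood fit over the 6 groups, with Benjamini-Hochberg adjustment over all genes tested and a threshold of 0.05. No spike-in was used, so values are relative amounts, and in bulk RNA fewer cells of a kind cannot be told apart from less RNA per cell. Scaling mattered most in KMS-12: with library size alone, the median log2 fold change of all genes moved to -0.82 in KMS-12 (-0.06 with TMM), to -0.25 in KMS-11 (0.00 with TMM) and to -0.05 in RPMI8226 (-0.03 with TMM). The share of called genes that were higher with JQ1 moved with it, to 7.49% from 44.0% in KMS-12, to 23.8% from 45.0% in KMS-11 and to 39.4% from 42.2% in RPMI8226. Myeloma plasma cell markers were read in all libraries, with a summed level of 3240 to 4556 CPM in KMS-11 with JQ1 against 7473 to 8072 CPM with DMSO, 4060 to 4104 CPM in KMS-12 with JQ1 against 2514 to 2549 CPM with DMSO, and 3297 to 3391 CPM in RPMI8226 with JQ1 against 4902 to 5941 CPM with DMSO. In KMS-12 the 9 markers moved both ways, with IRF4, PRDM1, XBP1 and CD38 higher with JQ1, TNFRSF17, SLAMF7, MZB1 and JCHAIN lower and SDC1 not past the test. The marker CD38 stood at only 0.387 to 0.952 CPM in KMS-11. Markers of B cells, of T and NK cells and of stroma and endothelium each summed to at most 5.09 CPM in a library. Monocyte markers summed to 2.63 to 4.81 CPM in RPMI8226 with JQ1 against 19.6 to 24.4 CPM with DMSO, and their part in the RPMI8226 results was not tested.

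ZFP36 (ENSG00000128016, chr19:39406813-39409412, plus strand) showed the widest differences of the 8. In KMS-12 it stood at 435 and 462 CPM with JQ1, against 15.8 and 13.2 CPM with DMSO. In KMS-11 the values were 144 and 166 CPM with JQ1, against 47.1 and 60.8 CPM with DMSO. In RPMI8226 they were 45.6 and 38.7 CPM with JQ1, against 79.4 and 69.9 CPM with DMSO. Both JQ1 libraries lay above both DMSO libraries in KMS-12 and KMS-11 and below them in RPMI8226. On the log2 scale the fold change was 4.95 ± 0.15 (SE) in KMS-12, a 30.9-fold difference, 1.52 ± 0.13 in KMS-11 and -0.82 ± 0.13 in RPMI8226. KMS-12 thus held both the lowest DMSO level and the highest JQ1 level of the 3 lines. With library size alone the KMS-12 value was 4.18, the KMS-11 value 1.27 and the RPMI8226 value -0.85. None of its 207 values under the alternatives changed sign. Those values are refits of the same libraries by which ZFP36 was chosen, so the kept sign is no separate support for its pattern.

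**Figure D1:**
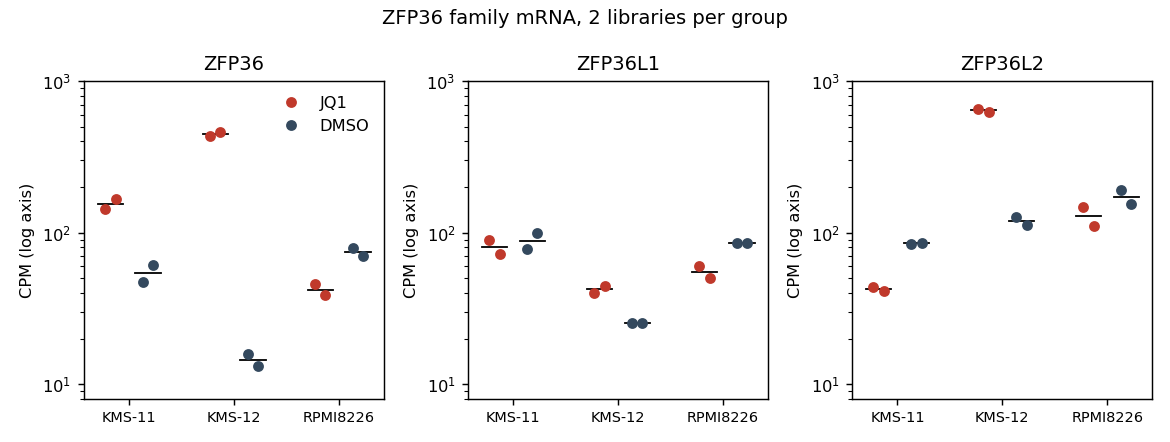
Level of ZFP36, ZFP36L1 and ZFP36L2 in CPM on a log axis in the 3 lines, with JQ1 left of DMSO; each point is 1 library and each bar the mean of 2. ZFP36 reached 435 and 462 CPM in KMS-12 with JQ1, against 15.8 and 13.2 CPM with DMSO, while in RPMI8226 all 3 genes had their JQ1 libraries below their DMSO libraries.

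ZFP36L2 (ENSG00000152518, chr2:43222402-43226609, minus strand), the relative known for its part in lymphocyte development, rose in KMS-12 and fell in KMS-11 and RPMI8226. In KMS-12 it had 656 and 629 CPM with JQ1, against 127 and 112 CPM with DMSO. KMS-11 had 43.7 and 41.2 CPM with JQ1, against 84.1 and 86.0 CPM with DMSO. RPMI8226 had 148 and 110 CPM with JQ1, against 191 and 155 CPM with DMSO. The groups did not overlap in any line, but in RPMI8226 the higher JQ1 library came close to the lower DMSO library. The log2 fold change was 2.43 ± 0.13 in KMS-12 (5.38-fold, edgeR adjusted p = 3.7e-10), -1.003 ± 0.13 in KMS-11 (adjusted p = 1.2e-05) and -0.42 ± 0.13 in RPMI8226 (adjusted p = 0.018). The RPMI8226 call was lost without JQ1 replicate 2 (-0.22) or without DMSO replicate 1 (-0.27). With library size alone the KMS-12 rise was 1.66 and remained past the test. Averaged over the lines ZFP36L2 rose by 0.33 ± 0.07 (edgeR adjusted p = 0.0011), but with library size alone the average was -0.02.

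ZFP36L1 (ENSG00000185650, chr14:68787660-68796253, minus strand), which acts beside ZFP36L2 in B cell precursors, fell in RPMI8226. There it had 59.9 and 50.2 CPM with JQ1, against 85.9 and 84.9 CPM with DMSO. In KMS-12 it had 39.9 and 44.7 CPM with JQ1, against 25.4 and 25.3 CPM with DMSO. In KMS-11 it had 89.1 and 72.0 CPM with JQ1, against 78.3 and 99.0 CPM with DMSO. The groups were apart in RPMI8226 and KMS-12 and overlapped in KMS-11. Its log2 fold change was -0.63 ± 0.13 in RPMI8226 (edgeR adjusted p = 0.0010), 0.74 ± 0.13 in KMS-12 (adjusted p = 0.00017) and -0.14 ± 0.13 in KMS-11 (adjusted p = 0.44). The rise in KMS-12 depended on the scaling, since with library size alone it was -0.03 and did not pass the test.

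Because shares within the family do not depend on scaling, the reads per kilobase of exon of the 3 relatives were also set against their sum. Here and below, the length was that of all annotated exons of a gene joined, over all its transcripts. It was 2010 bases for ZFP36, 5160 for ZFP36L1 and 3696 for ZFP36L2, so levels set between genes depend on the annotation. ZFP36 made up 71.1% and 76.7% of the family in KMS-11 with JQ1, against 38.2% and 41.6% with DMSO. In KMS-12 it made up 53.9% and 56.2% with JQ1, against 16.6% and 15.8% with DMSO. In RPMI8226 it made up 30.5% and 32.7% with JQ1, against 36.7% and 37.3% with DMSO. The leading member thus differed between groups: ZFP36 led in KMS-11 and KMS-12 with JQ1 and, with 38.2% against 37.1% for ZFP36L2 in replicate 1, also in KMS-11 with DMSO, and ZFP36L2 led in the other 3 groups. ZFP36L1 made up 1.92% and 2.12% of the family in KMS-12 with JQ1, against 10.4% and 11.8% with DMSO, although its own CPM was higher with JQ1. These shares include ZFP36 and were not tested.

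**Figure D2:**
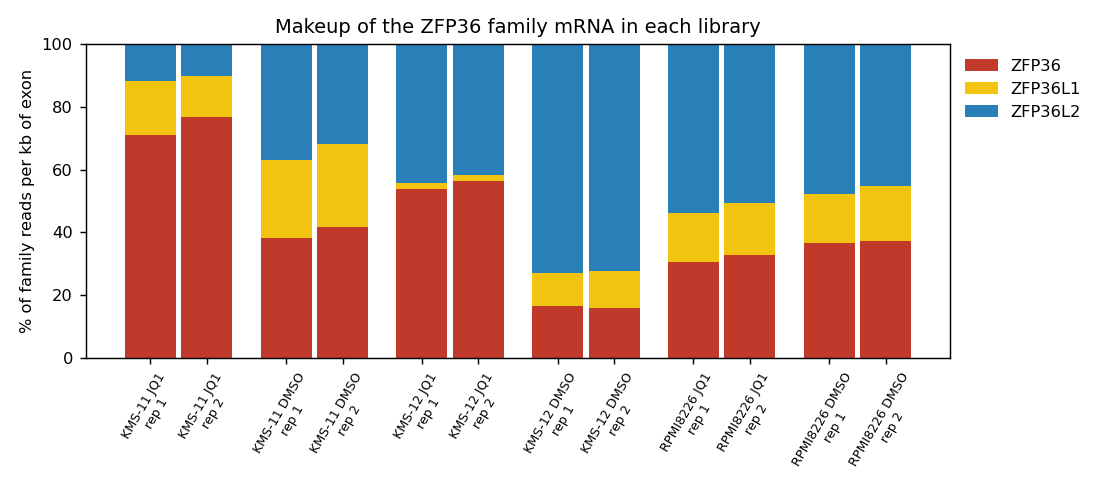
Percent of the family's reads per kilobase of exon held by ZFP36, ZFP36L1 and ZFP36L2, 1 bar for each library, with each line's JQ1 libraries left of its DMSO libraries. ZFP36 holds 71.1% and 76.7% in KMS-11 with JQ1, against 38.2% and 41.6% with DMSO, and ZFP36L1 is a thin band of 1.92% and 2.12% in KMS-12 with JQ1.

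KHSRP (ENSG00000088247, chr19:6413348-6424794, minus strand), a KH-domain protein that brings decay enzymes to AU-rich mRNAs and takes part in microRNA maturation, rose in RPMI8226. It had 292 and 272 CPM there with JQ1, against 188 and 183 CPM with DMSO. In KMS-12 it had 270 and 287 CPM with JQ1, against 176 and 175 CPM with DMSO. In KMS-11 it had 233 and 221 CPM with JQ1, against 217 and 249 CPM with DMSO. The groups were far apart in RPMI8226 and KMS-12 and overlapped in KMS-11. For KHSRP the log2 fold change was 0.60 ± 0.09 in RPMI8226 (edgeR adjusted p = 9.3e-05), 0.67 ± 0.09 in KMS-12 (adjusted p = 1.4e-05) and -0.04 ± 0.09 in KMS-11 (adjusted p = 0.82). With library size alone the RPMI8226 value was 0.58, but the KMS-12 value was -0.10 and did not pass the test.

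HNRNPD (ENSG00000138668, chr4:82352498-82374503, minus strand), whose protein AUF1 exists as several isoforms, had 237 and 258 CPM in KMS-12 with JQ1, against 176 and 187 CPM with DMSO. In RPMI8226 it had 133 and 126 CPM with JQ1, against 108 and 103 CPM with DMSO. In KMS-11 it had 179 and 189 CPM with JQ1, against 162 and 217 CPM with DMSO. JQ1 libraries were above DMSO libraries in KMS-12 and RPMI8226, and in KMS-11 they lay between the 2 DMSO libraries. HNRNPD had a log2 fold change of 0.45 ± 0.11 in KMS-12 (edgeR adjusted p = 0.0034), 0.29 ± 0.11 in RPMI8226 (adjusted p = 0.058) and -0.04 ± 0.11 in KMS-11 (adjusted p = 0.83). The KMS-12 direction turned to -0.32 with library size alone, a value past the test. Gene counts cannot separate the AUF1 isoforms, and the divergent transcript HNRNPD-DT on the opposite strand had 24 to 116 counts per library.

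ELAVL1 (ENSG00000066044, chr19:7958579-8005659, minus strand), which protects AU-rich mRNAs from decay, rose slightly in RPMI8226. It had 76.4 and 82.8 CPM there with JQ1, against 70.0 and 59.9 CPM with DMSO. In KMS-12 it had 87.6 and 85.5 CPM with JQ1, against 96.8 and 97.2 CPM with DMSO. In KMS-11 it had 88.5 and 94.3 CPM with JQ1, against 91.7 and 99.9 CPM with DMSO. JQ1 libraries were above DMSO libraries in RPMI8226, below them in KMS-12 and overlapping with them in KMS-11. Its log2 fold change was 0.29 ± 0.10 in RPMI8226 (edgeR adjusted p = 0.030), -0.17 ± 0.10 in KMS-12 (adjusted p = 0.19) and -0.07 ± 0.10 in KMS-11 (adjusted p = 0.65). The rise in RPMI8226 missed the threshold without JQ1 replicate 2 (0.24) or without DMSO replicate 2 (0.18), and with RLE scaling or DESeq2 (0.25 in both). ELAVL1 passed the test as lower in KMS-12 with library size alone (-0.94) or a filter at a mean of at least 10 CPM (-0.25), and in KMS-11 with library size alone (-0.33). The ratio of KHSRP to ELAVL1 per kilobase, which needs no scaling, was 4.71 and 5.11 in KMS-12 with JQ1 against 2.77 and 2.75 with DMSO, 5.83 and 5 in RPMI8226 with JQ1 against 4.09 and 4.67 with DMSO, and 4.02 and 3.58 in KMS-11 with JQ1 against 3.62 and 3.81 with DMSO.

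TIA1 (ENSG00000116001, chr2:70209444-70248660, minus strand) had 184 and 162 CPM in KMS-12 with JQ1, against 128 and 131 CPM with DMSO. In RPMI8226 it had 152 and 141 CPM with JQ1, against 127 and 116 CPM with DMSO. In KMS-11 it had 152 and 152 CPM with JQ1, against 133 and 156 CPM with DMSO. The JQ1 libraries were the higher ones in KMS-12 and RPMI8226 and lay between the DMSO libraries in KMS-11. The log2 fold change was 0.42 ± 0.10 in KMS-12 (edgeR adjusted p = 0.0021), 0.27 ± 0.10 in RPMI8226 (adjusted p = 0.045) and 0.07 ± 0.10 in KMS-11 (adjusted p = 0.63). In KMS-12 the call was lost without JQ1 replicate 1 (0.33, adjusted p = 0.054; range over all alternatives 0.00020 to 0.054), and with library size alone the direction turned to -0.35, also past the test. The RPMI8226 call was lost without any 1 of 10 libraries, all but the KMS-11 DMSO libraries, with values of 0.20 to 0.34, and with RLE scaling, library size alone, a mean of at least 10 CPM or DESeq2 (0.21 to 0.24). TIA1 shares bases on the same strand with C2orf42, which had 354 to 695 counts per library against at least 2380 for TIA1, so part of its reads is uncertain.

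TIAL1 (ENSG00000151923, chr10:119571802-119597029, minus strand), the close relative of TIA1, passed no test of JQ1 against DMSO. It had 78.8 and 75.3 CPM in KMS-12 with JQ1, against 86.5 and 90.1 CPM with DMSO. In KMS-11 it had 122 and 134 CPM with JQ1, against 126 and 163 CPM with DMSO. In RPMI8226 it had 90.6 and 85.4 CPM with JQ1, against 89.8 and 80.6 CPM with DMSO. JQ1 libraries were the lower ones in KMS-12 and overlapped with DMSO libraries in the other lines. The log2 fold change was -0.20 ± 0.11 in KMS-12, -0.18 ± 0.11 in KMS-11 and 0.05 ± 0.11 in RPMI8226 (edgeR adjusted p = 0.17, 0.22 and 0.80). The KMS-11 value passed without DMSO replicate 1 (-0.36), with library size alone TIAL1 was called lower in KMS-12 (-0.97) and KMS-11 (-0.44), and with a mean of at least 10 CPM it was called lower in KMS-12 (-0.29). Per kilobase, TIA1 stood at 2.60 and 2.40 times the level of TIAL1 in KMS-12 with JQ1 against 1.65 and 1.62 times with DMSO, at 1.39 and 1.26 times in KMS-11 with JQ1 against 1.17 and 1.06 times with DMSO, and at 1.86 and 1.84 times in RPMI8226 with JQ1 against 1.58 and 1.60 times with DMSO. The JQ1 libraries had the higher ratio in all 3 lines, a comparison seen after the values and not tested.

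**Figure D3:**
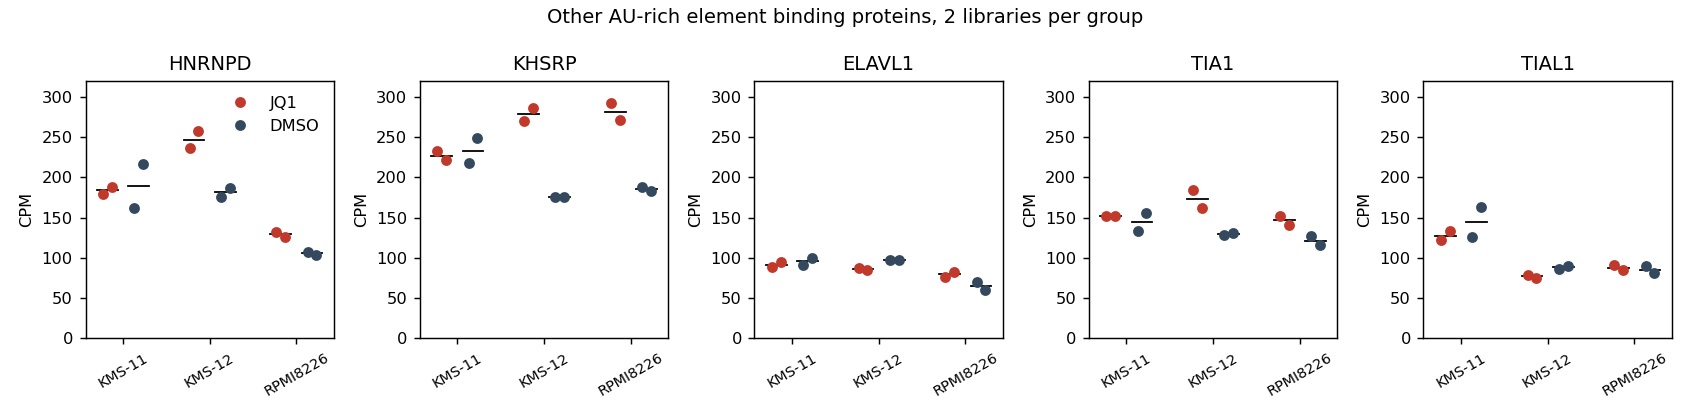
Level of HNRNPD, KHSRP, ELAVL1, TIA1 and TIAL1 in CPM in the 3 lines, with JQ1 left of DMSO; each point is 1 library and each bar the mean of 2. KHSRP in KMS-12 and RPMI8226 shows the widest gap, with 270 to 292 CPM with JQ1 against 175 to 188 CPM with DMSO; with library size alone the KMS-12 direction of HNRNPD, KHSRP and TIA1 turns round.

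Counted over the 7 tested members, KMS-12 had 5 higher with JQ1 and 2 not past the test, where 46% of all genes were called, 20.2% higher and 25.7% lower. RPMI8226 had 3 higher and 2 lower, where 32.2% of all genes were called, 13.6% higher and 18.6% lower. KMS-11 had 1 lower (ZFP36L2) and 6 not past the test, where 38.5% were called and 21.2% were lower. In the average of the lines 4 were higher (ZFP36L2, HNRNPD, KHSRP and TIA1), where 49% were called and 22.3% were higher. The lowest mean level of a member was 62.9 CPM, so genes of higher level are a closer comparison. Of 10130 genes with a mean of at least 10 CPM, fitted alone, 6594 were called in KMS-12 (3213 higher) and 4823 in RPMI8226 (2281 higher). There 5918 were called in KMS-11 (2865 higher) and 7141 in the average (3490 higher). The 7 had a median log2 fold change of 0.45 in KMS-12, 0.27 in RPMI8226 and -0.07 in KMS-11, beside -0.06, -0.03 and 0.00 over all genes. With library size alone the KMS-12 picture changed to 1 higher (ZFP36L2) and 4 lower (ELAVL1, HNRNPD, TIA1 and TIAL1), where 4.41% of all genes were called higher and 54.4% lower. The KMS-11 count became 6 lower, where 30.4% of all genes were called lower. With that scaling 3 members were called in the average of the lines, all lower (ZFP36L1, ELAVL1 and TIAL1), where 44.1% of all genes were.

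The responses were then compared between lines by the difference of the fold changes. Of the 10130 genes with a mean of at least 10 CPM, fitted alone, 3756 differed for KMS-12 against KMS-11. For RPMI8226, 4331 of them differed against KMS-12 and 2204 against KMS-11. The responses of KMS-12 and KMS-11 differed for 4 of the 7, where 20% of all genes were called (10.1% with a more positive and 9.87% with a more negative response in KMS-12): by 3.43 ± 0.19 for ZFP36L2 (edgeR adjusted p = 1.9e-09), 0.87 ± 0.18 for ZFP36L1 (adjusted p = 0.0021), 0.70 ± 0.13 for KHSRP (adjusted p = 0.00086) and 0.49 ± 0.16 for HNRNPD (adjusted p = 0.037), all more positive in KMS-12. With library size alone the ZFP36L2 difference was 2.92 and remained past the test, those of ZFP36L1 (0.36) and KHSRP (0.19) did not pass, and that of HNRNPD was -0.03. Without any 1 of 7 of the 8 libraries of these lines (all but KMS-11 DMSO replicate 1) the HNRNPD difference lost its call, at 0.26 to 0.55. The responses of RPMI8226 and KMS-12 differed for 3, where 23.4% were called (12.3% more positive and 11.1% more negative in RPMI8226): by -2.85 ± 0.18 for ZFP36L2 (adjusted p = 1.4e-08), -1.37 ± 0.18 for ZFP36L1 (adjusted p = 3.0e-05) and 0.46 ± 0.14 for ELAVL1 (adjusted p = 0.023). The ELAVL1 difference lost its call without any 1 of 6 libraries, the 4 of KMS-12 and replicate 2 of both RPMI8226 groups, at 0.35 to 0.48. The responses of RPMI8226 and KMS-11 differed for 2, where 11.4% were called (6.7% more positive and 4.72% more negative in RPMI8226): by 0.64 ± 0.13 for KHSRP (adjusted p = 0.0035) and 0.58 ± 0.18 for ZFP36L2 (adjusted p = 0.049). The ZFP36L2 difference lost its call without any 1 of 10 libraries, all but RPMI8226 JQ1 replicate 2 and DMSO replicate 1, at 0.35 to 0.63, and with RLE scaling, a mean of at least 10 CPM or limma-voom (0.55 to 0.59).

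A single test of any difference between the lines called 4 of the 7, where 30.1% of all genes were called. Of the 10130 genes with a mean of at least 10 CPM, fitted alone, 5288 were called. The 4 members were ZFP36L2 (edgeR adjusted p = 2.2e-09), ZFP36L1 (adjusted p = 6.9e-05), KHSRP (adjusted p = 0.00076) and ELAVL1 (adjusted p = 0.038). The ELAVL1 call was lost without any 1 of 7 libraries, the 4 of KMS-12, KMS-11 JQ1 replicate 1 and replicate 2 of both RPMI8226 groups, with adjusted p of 0.059 to 0.25 there and 5.6e-06 to 0.25 over all alternatives. It was also lost with RLE scaling (adjusted p = 0.071) and with DESeq2 (adjusted p = 0.081). HNRNPD (adjusted p = 0.062), TIA1 (adjusted p = 0.16) and TIAL1 (adjusted p = 0.41) did not pass. For ZFP36, as a description, the response of KMS-12 minus that of KMS-11 was 3.43, that of RPMI8226 minus KMS-11 was -2.35 and that of RPMI8226 minus KMS-12 was -5.77. The difference of KMS-12 from KMS-11 was thus 3.43 for both ZFP36 and ZFP36L2, but ZFP36 was higher with JQ1 in KMS-11 and ZFP36L2 lower.

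**Figure D4:**
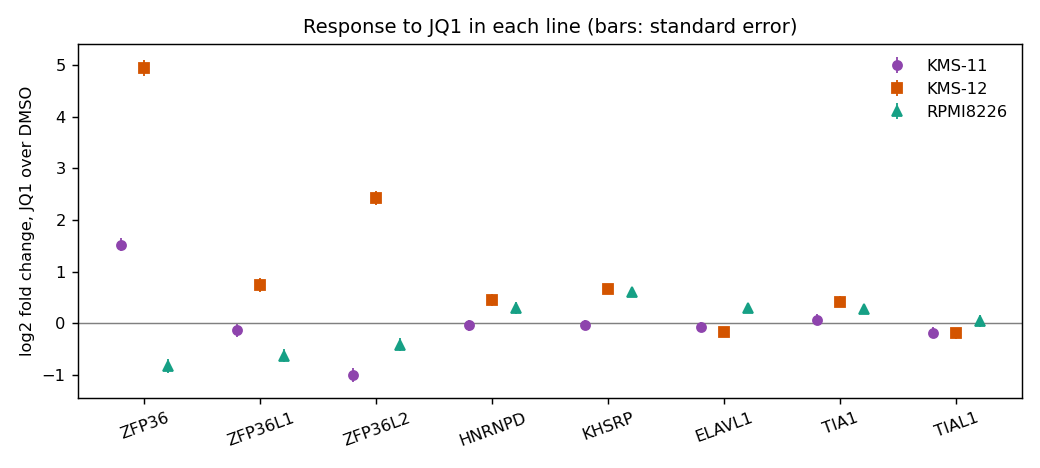
Log2 fold change of JQ1 over DMSO (vertical axis) for the 8 members in KMS-11, KMS-12 and RPMI8226; bars are standard errors. ZFP36 and ZFP36L2 in KMS-12 stand far from the others at 4.95 and 2.43; with library size alone the KMS-12 values of ZFP36L1, HNRNPD, KHSRP and TIA1 lie between -0.03 and -0.35, and that of TIA1 in KMS-11 turns to -0.19.

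The lines also differed in their resting levels with DMSO, as they did for most genes tested. Of 10130 genes with a mean of at least 10 CPM, fitted alone, 7554 differed between KMS-12 and KMS-11. Between RPMI8226 and KMS-11 6995 of them differed, and between RPMI8226 and KMS-12 7434. ZFP36L1 was lower in KMS-12 than in KMS-11 by 1.80 ± 0.13 (log2 difference -1.80, edgeR adjusted p = 1.3e-09), as was TIAL1 (-0.71 ± 0.11, adjusted p = 2.2e-05) and KHSRP (-0.41 ± 0.09, adjusted p = 0.00092), while ZFP36L2 was higher (0.49 ± 0.13, adjusted p = 0.0029). These were 4 of 7 members, where 62.9% of all genes were called, 30.2% higher and 32.7% lower in KMS-12. RPMI8226 differed from KMS-11 in 6 of 7, where 58.2% were called (30% higher and 28.2% lower), with ZFP36L2 higher (1.02 ± 0.13, adjusted p = 2.9e-06) and the 5 non-family members lower, from -0.25 for TIA1 to -0.85 for HNRNPD. The TIA1 difference (adjusted p = 0.040) lost its call without any 1 of 7 libraries, those of KMS-12, the DMSO libraries of RPMI8226 and KMS-11 DMSO replicate 2, at -0.32 to -0.12, and with RLE scaling, library size alone or DESeq2 (-0.23 to -0.19). The KHSRP difference (-0.33) lost its call without KMS-11 DMSO replicate 2 (-0.22). RPMI8226 differed from KMS-12 in 4 of 7, where 62.5% were called (33.2% higher and 29.3% lower), with ZFP36L1 (1.75 ± 0.13) and ZFP36L2 (0.53 ± 0.13) higher and HNRNPD (-0.78 ± 0.11) and ELAVL1 (-0.58 ± 0.10) lower. For ZFP36 the log2 difference with DMSO was -1.89 between KMS-12 and KMS-11, 0.47 between RPMI8226 and KMS-11 and 2.36 between RPMI8226 and KMS-12, given as a description.

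Ranked per kilobase of exon, the order of the 8 levels changed with JQ1 mainly through the ZFP36 family. The joined exon lengths ran from 2010 bases for ZFP36 to 7355 for TIAL1, so the ranks depend on the annotation. In KMS-12 with JQ1, ZFP36 (223 CPM per kb) and ZFP36L2 (174) stood above KHSRP (61.1), and ZFP36L1 was last (8.20). In KMS-12 with DMSO, KHSRP (38.5) and ZFP36L2 (32.3) led, and ZFP36 (7.22) and ZFP36L1 (4.92) were the lowest of the 8. In KMS-11 with JQ1, ZFP36 (77.0) led before KHSRP (49.8), and ZFP36L2 (11.5) was last, whereas with DMSO KHSRP (51.2) led and HNRNPD (27.1), ZFP36 (26.8) and ZFP36L2 (23.01) followed. The HNRNPD libraries there overlapped with those of ZFP36 and of ZFP36L2, while both ZFP36 libraries lay above both ZFP36L2 libraries. In RPMI8226 with JQ1, KHSRP (61.8) led before ZFP36L2 (35.0), and with DMSO ZFP36L2 (46.8), KHSRP (40.6) and ZFP36 (37.2) led. ELAVL1 was the lowest in RPMI8226 with DMSO (9.34) and in KMS-11 with DMSO (13.2 and 14.4 in its libraries). It was among the lower ones elsewhere, at 11.5 to 13.95.

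Across the 12 libraries, the genes whose log2 CPM followed ZFP36 most closely, of 16948 with a mean of at least 1 CPM, were MCL1 (Pearson r = 0.97), EZR (0.96), RNF213 (0.95), WASL (0.95) and RPSAP36 (0.94). The 12 points share lines and treatments and are not independent, so r is a description of likeness. MCL1, which encodes an anti-apoptotic protein on which myeloma cells depend, had log2 fold changes of 2.80 ± 0.12 in KMS-12, 1.37 ± 0.11 in KMS-11 and -0.46 ± 0.11 in RPMI8226. Its signs in the 3 lines were those of ZFP36, a likeness that the choice by correlation favours. In RPMI8226 RNF213 (-0.34) and RPSAP36 (-0.06) were also below 0, while EZR (0.27) and WASL (0.13) were above 0. In KMS-12 and KMS-11 all of these genes were above 0. Of the other members TIA1 had the highest r with ZFP36 (0.68), then KHSRP (0.56), ZFP36L2 (0.44), HNRNPD (0.42) and ZFP36L1 (0.32), and ELAVL1 (-0.13) and TIAL1 (-0.07) were near 0.

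The machinery that these proteins recruit was described by fixed lists. Of 20 tested genes of the CCR4-NOT complex and poly(A) shortening, 14 rose and 2 fell in KMS-12. In KMS-11 6 rose and 2 fell, and in RPMI8226 4 rose and 3 fell. Of all genes 20.2% rose and 25.7% fell in KMS-12, 17.3% and 21.2% in KMS-11, and 13.6% and 18.6% in RPMI8226. With library size alone 4 rose and 12 fell in KMS-12 (median -0.36, against 0.41 with TMM). In KMS-11 4 rose and 6 fell, and in RPMI8226 4 rose and 4 fell. All genes shifted too with that scaling. In KMS-12 4.41% of them rose and 54.4% fell (median -0.82), in KMS-11 9.5% and 30.4%, and in RPMI8226 12.7% and 19.5%. In the average of the lines 12 rose and 2 fell (median 0.24, beside -0.10 over all genes, of which 22.3% rose and 26.7% fell). With library size alone 4 rose and 8 fell there (median -0.11, beside -0.43 over all genes, of which 9.01% rose and 44.1% fell). The lowest adjusted p-values of the list in the average were those of TOB2 (0.92 ± 0.06, edgeR adjusted p = 5.4e-10), BTG2 (1.46 ± 0.10, adjusted p = 2.4e-08), CNOT4 (0.53 ± 0.05, adjusted p = 2.6e-07) and TOB1 (0.77 ± 0.08, adjusted p = 3.1e-07). TOB2, BTG2 and TOB1 are antiproliferative proteins that bridge to the deadenylase, and they rose with library size alone as well. CNOT4 is a ubiquitin ligase that associates with the complex; it rose by 0.18 in the average with library size alone, where its KMS-12 value was -0.13. BTG2 rose by 2.81 in KMS-12 and 1.12 in KMS-11 and had 0.43 in RPMI8226 (adjusted p = 0.061). BTG1, a relative of BTG2, rose in KMS-12 (1.19) and KMS-11 (0.38) and fell in RPMI8226 (-0.36), and these responses differed between the lines (edgeR adjusted p = 3.1e-06). PABPC4, a poly(A) binding protein, rose in KMS-12 (1.20) and had 0.23 in KMS-11 and -0.20 in RPMI8226, neither past the test.

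Of 20 tested genes of decapping and cap-bound repression, 6 rose and 6 fell in the average of the lines (median -0.04). With library size alone 3 rose and 13 fell. Of all genes 22.3% rose and 26.7% fell in that average, and 9.01% rose and 44.1% fell with library size alone. These shares also stand beside the exosome and stress granule counts that follow. EIF4ENIF1, a partner of cap-binding protein and DDX6, rose in KMS-12 (1.81) and KMS-11 (0.35) and had 0.06 in RPMI8226 (adjusted p = 0.76). XRN1, the exonuclease that degrades decapped mRNA, rose in KMS-12 (1.23), fell in RPMI8226 (-0.42) and had -0.02 in KMS-11. GIGYF2 (0.52 ± 0.05), which represses mRNAs that ZFP36 binds, and the decapping scaffold EDC4 (0.59 ± 0.06) rose in the average, and LSM4 (-0.41 ± 0.07), of the LSM ring that binds shortened 3′ ends, fell. Of 16 tested genes of the exosome and SKI complex 5 rose and 7 fell in the average (median -0.03), and 1 rose and 11 fell with library size alone. SKIC2, of the SKI complex, rose in the average (0.48 ± 0.06). DIS3L (-0.47 ± 0.06), EXOSC1 (-0.59 ± 0.08) and EXOSC5 (-0.997 ± 0.13) fell in the average. EXOSC5, an exosome core subunit, was lower in all 3 lines. DIS3L, a cytoplasmic exosome nuclease, fell in KMS-12 (-1.67) and had 0.07 in KMS-11 and 0.19 in RPMI8226. Of 7 tested stress granule partners of TIA1 and TIAL1, 5 rose and 2 did not pass (median 0.34; 1 rose and 3 fell with library size alone, median -0.01). G3BP1, the scaffold of stress granules, rose by 0.57 ± 0.05 in the average (edgeR adjusted p = 6.3e-08) and by 0.22 with library size alone, where its KMS-12 value was 0.00.

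ZFP36 is held inactive when p38 and its substrate MK2 phosphorylate it and 14-3-3 proteins bind, and phosphatase 2A reverses this. Of 19 tested genes of these kinases, phosphatases and 14-3-3 proteins, 12 rose and 4 fell in the average (median 0.25). With library size alone 4 rose and 9 fell (median -0.10). Of all genes 22.3% rose and 26.7% fell in the average, and 9.01% rose and 44.1% fell with library size alone. MAPK13 and MAPK12, which encode p38 isoforms and had the lowest adjusted p of the list in the average, fell in all 3 lines. MAPK14 and MAPK11, the other p38 genes of the list, were tested too but were not named by that rule, so their values are not printed. The falls of MAPK13 and MAPK12 therefore do not describe p38 as a whole. Which p38 isoform acts on ZFP36 in these cells was not tested. The log2 fold change of MAPK13 was -2.03 ± 0.12 in KMS-12, -4.14 ± 0.15 in KMS-11 and -1.94 ± 0.13 in RPMI8226, and that of MAPK12 was -1.13 ± 0.08 in the average. MAPKAPK2, which encodes MK2, rose by 1.14 ± 0.10 in KMS-12 (edgeR adjusted p = 8.3e-08) and 0.43 ± 0.10 in KMS-11 (adjusted p = 0.0017) and had 0.24 ± 0.10 in RPMI8226 (adjusted p = 0.077). MAPKAPK3 fell in the average (-0.97 ± 0.09), with -0.27 in KMS-12 (adjusted p = 0.13), -1.89 in KMS-11 and -0.73 in RPMI8226. MAP2K6, an activator of p38, rose in RPMI8226 (2.11) and KMS-11 (1.10) and fell in KMS-12 (-0.76).

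Of 8 tested adaptors of decay that act on immune mRNAs through other elements, 7 rose in the average and PUM2 did not pass (median 0.46). With library size alone 4 rose and 2 fell (median 0.11). Of all genes 22.3% rose and 26.7% fell in the average, and 9.01% rose and 44.1% fell with library size alone. These shares also stand beside the counts of other binding proteins below. ZC3H12A, the endonuclease Regnase-1, rose by 2.00 ± 0.12 in KMS-12 and 1.53 ± 0.12 in KMS-11 and had -0.17 ± 0.12 in RPMI8226 (edgeR adjusted p = 7.9e-10, 1.8e-08 and 0.30). ARID5A, which counters Regnase-1 on some cytokine mRNAs, rose in KMS-12 (2.12), KMS-11 (0.93) and RPMI8226 (0.84), also with library size alone (1.35, 0.68 and 0.81). N4BP1 and RC3H1 (Roquin) rose in all 3 lines, by 0.66 and 0.45 in the average, but with library size alone their KMS-12 values were -0.14 and -0.11. Of 17 tested other proteins that bind AU-rich or U-rich elements, 6 rose and 2 fell in the average (median 0.07; 2 rose and 11 fell with library size alone, median -0.28). PCBP2 rose in all 3 lines (1.00 in KMS-12, 1.00 in KMS-11 and 0.69 in RPMI8226) and CELF2 fell in KMS-12 (-1.36) and RPMI8226 (-0.73). HNRNPA1 fell in KMS-12 (-0.42) and rose in RPMI8226 (0.47), while HNRNPC rose in KMS-12 (0.59; -0.18 with library size alone) and had 0.21 in RPMI8226.

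Finally, 41 mRNAs known for AU-rich elements were followed, of which 31 were tested. In KMS-11 14 rose and 8 fell, where 17.3% of all genes rose and 21.2% fell. In KMS-12 11 rose and 7 fell, where 20.2% of all genes rose and 25.7% fell. With library size alone 9 rose and 13 fell there, where 4.41% of all genes rose and 54.4% fell. In RPMI8226 3 rose and 13 fell, where 13.6% of all genes rose and 18.6% fell. Only 25 of the 31 had reads in all 6 groups. With DMSO, 23 of the 31 were higher and 4 lower in RPMI8226 than in KMS-12 (median 1.875), where 33.2% of all genes were higher. A gene that passed the filter through the groups where it is high can mainly fall there. The counts by line are thus a description only. The average of the lines had 14 higher and 7 lower (median 0.40), where 22.3% of all genes were higher and 26.7% lower. With library size alone it had 9 higher and 9 lower (median 0.05), where 9.01% of all genes were higher and 44.1% lower. The TTATTTATT motif was present in 11 of the 31 AU-rich mRNAs tested and absent from the annotated 3′ UTR of 19. MYC had no annotated 3′ UTR in the transcript used and VEGFA a short one of 387 bases. In the average 6 of the 11 with the motif rose and 3 fell, and 8 of the 19 without it rose and 3 fell. By line, 2 of the 11 with the motif rose and 3 fell in KMS-12 (median 0.15), beside 9 and 3 of the 19 without it (median 1.08). The counts were 5 and 3 with the motif beside 9 and 5 without it in KMS-11 (medians 0.23 and 0.33), and 1 and 5 beside 2 and 7 in RPMI8226 (medians -0.16 and -0.25). These sets were not tested against each other, and the limit set by the filter holds for them too. TNFAIP3 and PLAUR, whose motif sites are shown above, were chosen after their values were seen. BIRC3, an inhibitor of apoptosis on the NF-κB pathway, rose by 3.51 ± 0.12 in KMS-11 (edgeR adjusted p = 6.1e-12) and fell in KMS-12 (-0.31 ± 0.11, adjusted p = 0.035), with -0.16 ± 0.11 in RPMI8226 (adjusted p = 0.28). TNFAIP3, the NF-κB brake A20, rose in KMS-11 (1.00) and had 0.15 in KMS-12 and 0.13 in RPMI8226. PLAUR, the urokinase receptor, fell in all 3 lines (-1.49 in KMS-12, -1.30 in KMS-11 and -1.89 in RPMI8226). NFKBIZ, an NF-κB cofactor, rose in KMS-12 (2.85 ± 0.15) and KMS-11 (2.46 ± 0.15) and had 0.39 ± 0.15 in RPMI8226 (adjusted p = 0.052). JUNB, an immediate early factor, rose in KMS-12 (1.79) and KMS-11 (1.18) and had 0.09 in RPMI8226. CCND1, a cyclin of cell cycle entry, fell in KMS-12 (-0.85) and RPMI8226 (-1.29) and rose in KMS-11 (1.59).

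**Figure D5:**
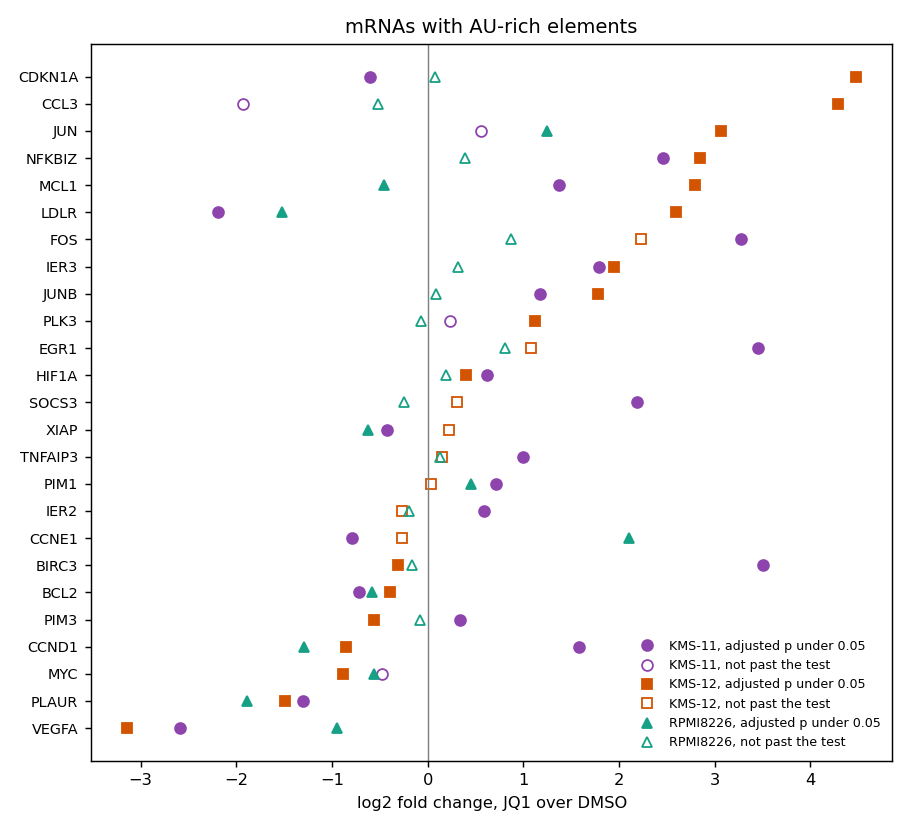
Log2 fold change of JQ1 over DMSO (horizontal axis) for 25 mRNAs with AU-rich elements that had reads in all 6 groups, ordered by KMS-12; filled marks passed the test, open marks did not. MCL1 and NFKBIZ lie far right in KMS-12 and KMS-11 and MCL1 left of 0 in RPMI8226, while PLAUR and VEGFA lie left of 0 in all 3 lines.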

How the data were processed

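The authors deposited raw counts, unnormalized whole numbers of reads for each Ensembl gene ID in each library. Libraries were stranded and made from total RNA depleted of ribosomal RNA, per the labels' protocols. The tools DESeq2 and MACS2 and the builds GRCh38.p13 and hg38 appear, without a role, per the submitters' processing notes. Not given in the sources used here are the aligner, the counter, the annotation and the strand setting. Symbols matched 60437 IDs (99.62%), and positions and 3′ UTRs came from GENCODE 29 (58420 IDs). The 3′ UTR was that of the transcript with the best APPRIS rank, then the longest.

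In R 4.3.3, edgeR 4.0.16 was run on the counts (filterByExpr, minimum count 10, minimum total 15; TMM; robust glmQLFit on 6 group means; F tests). Standard errors are the log2 fold change over the square root of F. Calls used an adjusted p under 0.05. The code was tested on simulated data. The members and the gene lists were chosen with earlier results of these data known. By the rule for named genes, all 8 members, from each list up to 4 genes (smallest adjusted p in the average of the lines) and up to 3 (smallest adjusted p in the test of any difference), and the 5 genes most correlated with ZFP36 (log2 CPM, prior count 2) could be named. Some list genes that met the rule are not printed, and a few, such as TNFAIP3, PLAUR, VEGFA and PUM2, are named outside it. Other settings tried were library size alone, RLE scaling, TMM computed without abundant gene classes, limma-voom (limma 3.58.1), DESeq2 1.42.0, a mean minimum of 10 CPM, a minimum of 1 read, 2 kinds of replicate block, and fits without each library in turn, in which the spread of a lone library was taken from the other groups.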

Additional observations from a re-analysis of the deposited data

Results flagged for a closer look

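Responses to JQ1 that differed between lines were looked at again. By the test of the difference itself (edgeR, adjusted p under 0.05), the log2 response of KMS-12 minus that of KMS-11 was 3.43 for ZFP36L2, 0.87 for ZFP36L1, 0.70 for KHSRP and 0.49 for HNRNPD. The response of RPMI8226 minus that of KMS-12 was -2.85 for ZFP36L2, -1.37 for ZFP36L1 and 0.46 for ELAVL1. The response of RPMI8226 minus that of KMS-11 was 0.64 for KHSRP and 0.58 for ZFP36L2. For ZFP36 every JQ1 library lay above the DMSO libraries in KMS-11 and KMS-12 and below them in RPMI8226. The response of RPMI8226 minus that of KMS-11 was -2.35 and minus that of KMS-12 was -5.77 for ZFP36, and the difference was not tested, because the gene was chosen for it. Groups of 2 libraries are too small for a search for outlying samples.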

How the results depend on the processing

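Under 21 alternatives, none of the 207 values of ZFP36 and 45 of the 1449 of the other members changed sign, and the cause was not tested. The values are refits of the same libraries and are not independent. ZFP36 was chosen for its responses in them, so its kept signs are no separate support. The count of members called moved beyond 1.5 times as follows. It was 3 in RPMI8226 with RLE scaling or with DESeq2 (5 in the report). There 7513 and 6425 of 23493 genes were called (7574 in the report). It was 6 in KMS-11 with library size alone (1), where 39.9% of all genes were called (38.5%). For RPMI8226 minus KMS-11 it was 1 with RLE scaling, a mean of at least 10 CPM or limma-voom (2). There 2675 of 23493, 2204 of 10130 and 2960 of 23493 genes were called. With library size alone it was 6 for that difference, where 15.4% of all genes were called. It was 7 with library size alone both for RPMI8226 minus KMS-12 (3), where 43.6% of all genes were called, and for any difference (4), where 48% were. The count in RPMI8226, in KMS-11 and for RPMI8226 minus KMS-11 also changed when 1 library was left out, which leaves 1 library in a group. The share of all genes called changed there as well.

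Library size alone reversed these log2 values. JQ1 over DMSO: TIA1 in KMS-11 -0.19; in KMS-12 ZFP36L1 -0.033, HNRNPD -0.32, KHSRP -0.10 and TIA1 -0.35; in the average ZFP36L2 -0.019, ELAVL1 -0.33, HNRNPD -0.12 and TIA1 -0.10. KMS-12 minus KMS-11: HNRNPD -0.027 and TIA1 -0.17. RPMI8226 minus KMS-12: HNRNPD 0.59, KHSRP 0.68 and TIA1 0.59. With DMSO: HNRNPD 0.15 and TIA1 0.060 (KMS-12 minus KMS-11), ZFP36L1 0.0070 (RPMI8226 minus KMS-11) and KHSRP -0.078 (RPMI8226 minus KMS-12). It also reversed the medians of the other AU-rich binders (-0.28), CCR4-NOT (-0.11), the kinase list (-0.10) and the stress granule list (-0.014). The median of all genes in the average of the lines moved to -0.43 from -0.10. TIAL1 for KMS-12 minus KMS-11 was 0.00647 with RLE scaling and 0.00646 with DESeq2. With a mean of at least 10 CPM, TIAL1 in RPMI8226 was -0.013 and ELAVL1 in the average -0.042.

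Leaving out 1 library reversed only values that had not passed the test. JQ1 over DMSO in KMS-11 then spanned -0.30 to 0.060 for ZFP36L1, -0.13 to 0.081 for KHSRP, -0.038 to 0.20 for TIA1, -0.13 to 0.012 for ELAVL1, -0.24 to 0.20 for HNRNPD and -0.36 to 0.031 for TIAL1. TIAL1 spanned -0.031 to 0.13 in RPMI8226, and in the average ZFP36L1 spanned -0.063 to 0.053 and ELAVL1 -0.015 to 0.060. The response difference of TIAL1 spanned -0.22 to 0.16 for KMS-12 minus KMS-11 and -0.0019 to 0.41 for RPMI8226 minus KMS-11. With DMSO, KMS-12 minus KMS-11 spanned -0.049 to 0.084 for ELAVL1 and -0.26 to 0.16 for HNRNPD, RPMI8226 minus KMS-11 -0.22 to 0.14 for ZFP36L1, and RPMI8226 minus KMS-12 -0.13 to 0.030 for TIAL1.

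Deviations of same-numbered JQ1 and DMSO libraries correlated at 0.11 in KMS-11, 0.10 in RPMI8226 and 0.012 in KMS-12. Between groups of different lines the correlations were -0.037 to 0.047. The replicate numbers thus showed a weak tie in KMS-11 and RPMI8226, which was not tested and which the main fit left out. With a replicate block within each line HNRNPD in RPMI8226 passed (0.29, adjusted p = 0.018, edgeR; 0.0067 to 0.23 over all alternatives), for 6 members called there; the test of any difference called 5, with HNRNPD added. No other call of a member changed under the block. With it, 8421 of 23493 genes were called in RPMI8226 (7574 without it) and 8048 in the test of any difference (7070 without it). The lowest count of a member in any library was 363 (ZFP36, KMS-12 DMSO replicate 2).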
